A study of Bos taurus with 12 samples.

Results

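The genes described here are 31 enzymes and carriers of the tricarboxylic acid (TCA) cycle and of malate, glutamate and citrate metabolism. They were chosen by symbol from the table of gene counts, which lists 32637 genes. All 31 were present, and 30 of them had enough counts to be tested. The data were RNA-seq libraries of in vitro produced bovine expanded blastocysts, with 6 female and 5 male libraries and no treatment in either group. The embryos were collected on consecutive days about a week after fertilisation. The day of each library is not given in the sources used here, and the part of embryo age in the results was not tested. The SMART-Seq HT PLUS kit was applied directly, without a separate RNA extraction, to pools of a pair of cut embryos of the same sex, and each pool counts as a single replicate. Embryo sex had been determined by PCR on the other part of each cut embryo. The oocytes came from slaughterhouse ovaries and the semen from bulls used in weekly rotation. The comparison asked whether transcripts of these enzymes differed between male and female embryos.

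The TCA cycle oxidises acetyl-CoA in the mitochondrial matrix and delivers electrons to the respiratory chain. Because its intermediates leave the mitochondrion as citrate, malate and aspartate, the cycle is tied to lipid synthesis, to the cytosolic supply of NADPH and to nucleotide synthesis. Early mammalian embryos rely on pyruvate and amino acids before compaction, and oxygen use and glucose uptake increase as the blastocyst forms.

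Female libraries held 6664112 to 16162985 counted reads and male libraries 9942952 to 21392764. CPM, counts relative to library size as adjusted by edgeR's TMM factors, compare a gene between libraries but not one gene with another, since exon lengths were not at hand. The sex labels matched the sex-linked transcripts, with XIST between 52.3 and 261 CPM in females and between 0.745 and 3.97 CPM in males, and DDX3Y between 0 and 1.89 CPM in females and between 31.9 and 152 CPM in males. Markers of trophectoderm and inner cell mass were present in every library, among them KRT18 at 686 CPM or more and POU5F1 at 287 CPM or more. Others of the same lists had few counts, among them SOX2 with 22 to 76 and CDX2 with 17 to 523 per library. Of the 7 cumulus cell markers, FOXL2, AMH and INHA had 4 counts or fewer in every library, TNFAIP6 and HAS2 at most 45 and 61, and CYP19A1 from 2 to 42, while FSHR was counted in every library (58 to 359 counts). Their summed level ran from 7.19 to 32.7 CPM in females and from 5.38 to 29.5 CPM in males, and their part in the results was not tested. Male replicate 5 stood apart. It had the most counted reads and the fewest genes detected (14937, against at least 16985 elsewhere). Its summed trophectoderm markers reached 36145 CPM where no other library passed 23154 CPM, and KRT8 alone held 20142 CPM of that sum. Of that list, KRT8, KRT18, CDX2 and DAB2 were highest in this library, and GATA2, GATA3, TFAP2A, TFAP2C, PTGS2 and LGALS3 were not. The inner cell mass list was divided. POU5F1 (737 CPM) and LIN28A (6.74 CPM) were highest there, SPIC (55.8 CPM) and KLF17 (7.22 CPM) were lowest there, and NANOG and SOX2 were neither. The summed hypoblast markers were lowest in this library, at 208 CPM. In bulk libraries of cut embryos, fewer cells of a type and less RNA per cell cannot be told apart. Of the tested enzymes, 12 of 30 lay more than 0.5 above the male mean on the log2 scale in that library, and 27.8% of all tested genes did so. Estimates without it stand below beside many of those with it, and those of all 30 enzymes are drawn in the plot of fold changes.

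None of the 30 tested enzymes was called sex-biased. With edgeR's quasi-likelihood test, blocked on the first number of the library name, a gene was called where the false discovery rate (FDR, Benjamini-Hochberg) was under 0.1 and the fold change above 1.5. By this rule 0.414% of all 12802 tested genes were called male-biased and 1.5% female-biased, and 0 of the 30 enzymes fell in either class. At an unadjusted p under 0.05, edgeR gave 8 enzymes higher in males, where the share over all tested genes was 6.26%, and 1 enzyme higher in females, where that share was 6.95%. The 8 were IDH3A, IDH3B, SDHB, SDHC, SDHD, MDH2, PCK2 and GOT1, and the 1 was IDH3G. An FDR under 0.1 in edgeR, whatever the fold change, was reached in the male direction by SDHC alone, against 0.547% of all tested genes. DESeq2 with the same block and thresholds called 2 of the 30 male-biased, MDH2 and PCK2 (1.34% of all tested genes), and 0 female-biased (3.43%). The DESeq2 FDR was also under 0.1 for SDHC (0.00777), IDH3A (0.0704) and SDHB (0.0754), whose fold changes stayed under 1.5. For IDH3G, lower in males, it was 0.108. The share of all tested genes under that FDR alone was not counted for DESeq2. The edgeR fit without the block called SDHC and MDH2 male-biased (0.75% of all genes tested in that fit), and MDH2 and PCK2 were called when all genes with 1 count or more were kept (0.876%).

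Most of the estimates lay on the male side of 0. The log2 fold change, male over female, was above 0 for 24 of the 30 enzymes (50.5% of all tested genes), with a median of 0.29 over the enzymes and 0.01 over all tested genes. Without male replicate 5, 22 of 30 were above 0 and the median was 0.22. Every male library lay above every female library for 3 enzymes, IDH3A, SDHB and SDHC (1.43% of all tested genes), and the reverse held for 0 enzymes (1.88%). Within each of the 3 library numbers, the male mean exceeded the female mean in all 3 for 14 enzymes (19.5% of all tested genes), and the female mean exceeded the male mean in all 3 for IDH3G and DLST (20.3%). Library number 2 holds only 1 male library. The 31 genes together summed to 7979 ± 592 CPM in females (SD, n = 6), with a range of 6865 to 8469 CPM, against 9962 ± 294 CPM in males (SD, n = 5), with a range of 9469 to 10228 CPM. The ranges of these sums did not overlap, and most of the counts in them fell on MDH1, SDHD, IDH1, IDH3A and MDH2. Of these genes, only IDH3A had no overlap between the sexes by itself. How often sums over other sets of genes separate the sexes was not tested.

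**Figure D1:**
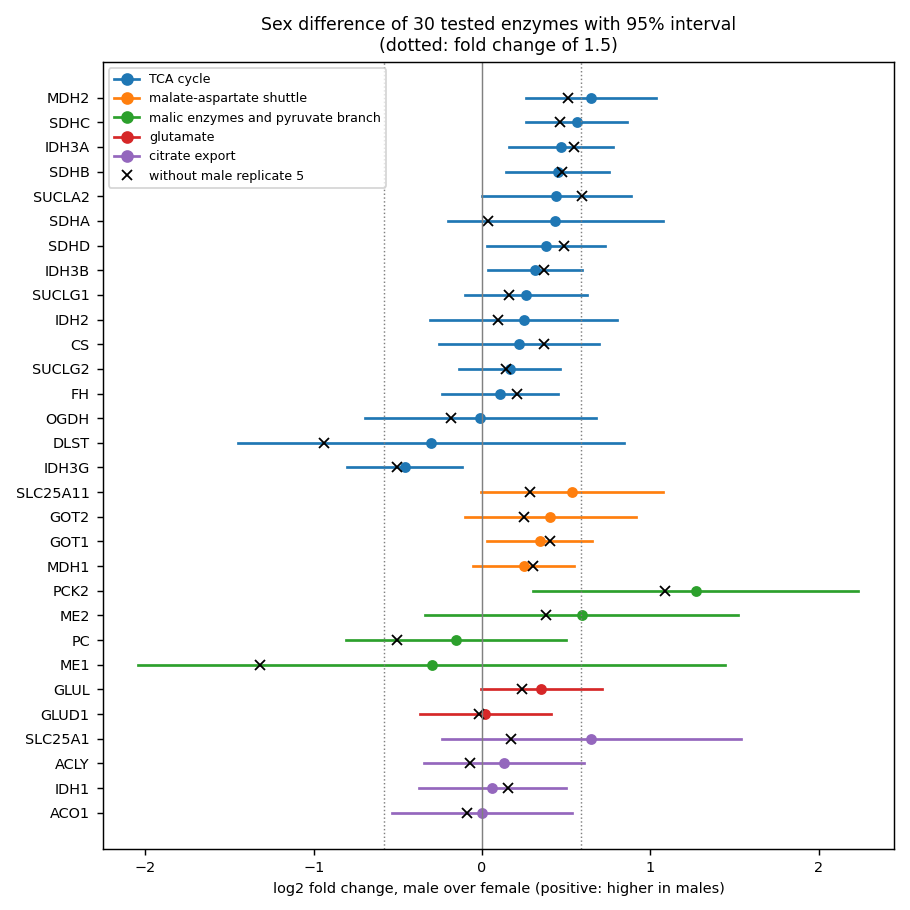
Log2 fold change, male over female, of the 30 tested enzymes grouped by role, with points for the edgeR estimate, lines for its 95% interval, crosses for the estimate without male replicate 5 and dotted lines at a fold change of 1.5. Of the 30 points, 24 lie to the right of 0, and the crosses of ME1, DLST and SLC25A1 lie farthest from their points.

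Of the 16 tested genes of the TCA cycle itself, 13 had an estimate above 0, and the median of the 16 log2 fold changes was 0.29. The succinate dehydrogenase complex, which oxidises succinate to fumarate and is also complex II of the respiratory chain, had all 4 subunits above 0, with a median of 0.44. SDHC, one of the subunits that anchor the complex in the inner membrane, lies on chromosome 3 from 8177616 to 8208058 (ARS-UCD2.0). Its lowest, median and highest levels in females were 203, 244 and 272 CPM. The males were at 393, 342, 322, 300 and 454 CPM in the order of replicates 1 to 5. The lowest male thus lay above the highest female. The fold change of SDHC was 1.48 (log2 0.56 ± 0.14 SE, 95% interval 0.26 to 0.86), and its FDR by edgeR with Benjamini-Hochberg adjustment was 0.082, so it passed the FDR but not the fold change of 1.5. Without male replicate 5 its log2 fold change was 0.46, with an edgeR FDR of 0.0761, and without male replicate 4 it was 0.62 and SDHC was called male-biased (0.393% of all genes tested in that fit).

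SDHB, the iron-sulfur subunit, lies on chromosome 2 from 135549028 to 135578116. Its levels in females ran from 190 CPM through a median of 249 CPM to 280 CPM. In males they were 311, 345, 301, 414 and 322 CPM, again without overlap, and male replicate 5 was not the highest. The log2 fold change was 0.45 ± 0.14 (SE), with an edgeR FDR of 0.183 after Benjamini-Hochberg adjustment. SDHD, the other membrane anchor, was at 851 ± 78.3 CPM in females (SD, n = 6) against 1105 ± 238 CPM in males (SD, n = 5), and its log2 fold change of 0.38 became 0.49 without male replicate 5 (edgeR FDR 0.0934). SDHA, the flavoprotein subunit that binds succinate, behaved otherwise. Female libraries held 111 to 155 CPM of SDHA and male replicates 1 to 4 held 114 to 182 CPM, whereas male replicate 5 held 414 CPM. Its log2 fold change of 0.44 ± 0.29 (SE) was 0.04 without that library. The estimates for SDHB, SDHC and SDHD thus did not rest on male replicate 5, and the estimate for SDHA did.

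**Figure D2:**
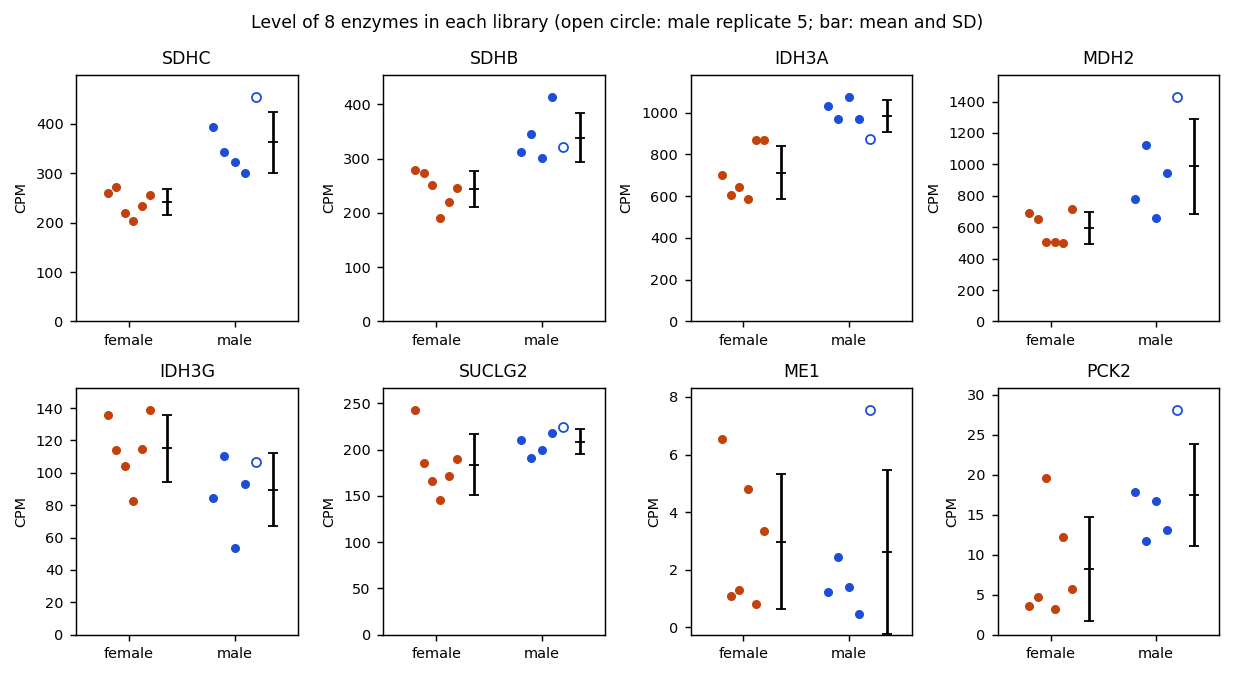
Level in CPM of 8 enzymes in each library, females in orange and males in blue, with the mean and SD beside each group and male replicate 5 as an open circle. The male and female points of SDHC, SDHB and IDH3A do not overlap, and the open circle is the highest male value for SDHC, MDH2, SUCLG2, ME1 and PCK2.

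The mitochondrial NAD-dependent isocitrate dehydrogenase, which makes alpha-ketoglutarate and NADH, is built from the catalytic subunit IDH3A and the regulatory subunits IDH3B and IDH3G. The estimates of its subunits had opposite signs. IDH3A, on chromosome 21 from 30538337 to 30554570, ran in females from 585 CPM through a median of 672 CPM to 868 CPM. The males were at 1032, 969, 1074, 969 and 873 CPM. The groups did not overlap, although the lowest male, replicate 5, and the highest female were only a few CPM apart. The log2 fold change of IDH3A was 0.47 ± 0.14 (SE), with an edgeR FDR of 0.166 after Benjamini-Hochberg adjustment, and it was 0.55 without male replicate 5, with an FDR of 0.0696.

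IDH3G is the only X-linked member, on the X chromosome from 37002946 to 37011460. Its lowest, median and highest levels in females were 82.7, 114 and 139 CPM. Males were at 84.1, 110, 53.8, 93.1 and 106 CPM, and male replicate 3 was the lowest of all 11 libraries. The groups overlapped, with all males below the female median. Its log2 fold change was -0.46 ± 0.16 (SE; 95% interval -0.80 to -0.12), with an edgeR FDR of 0.223 after Benjamini-Hochberg adjustment. X-linked genes as a whole had a median log2 fold change of -0.85, with 449 of 476 below 0, and 99 of the 476 had a larger (less negative) estimate than IDH3G. IDH3B was at 221 ± 16.3 CPM in females (SD, n = 6) against 274 ± 31.9 CPM in males (SD, n = 5), with a log2 fold change of 0.31 ± 0.13 (SE). The span of IDH3B overlaps that of NOP56 in the annotation, and how reads in the overlap were counted is not given in the sources used here.

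The relation between the subunits was also read within each library, where it does not depend on the scaling of the library. The log2 ratio of IDH3A to IDH3G averaged 2.63 ± 0.22 in females (SD, n = 6) against 3.49 ± 0.51 in males (SD, n = 5). The female values ran from 2.37 to 2.91 and the male values from 3.03 to 4.32, so that all 5 males lay above all 6 females. The difference of 0.86 had p = 0.00216 in a two-sided exact permutation test, the smallest p that 6 against 5 libraries allow, and an adjusted p of 0.0152 over the 7 ratios (Benjamini-Hochberg, exact permutation). This test compares the difference with 0, and the ratios were chosen with earlier results of these data known. IDH3A is autosomal and IDH3G X-linked. The median log2 fold changes of all autosomal genes (0.02) and all X-linked genes (-0.85) lay 0.87 apart, so the ratio differed between the sexes about as much as those medians. The pair did not sit at those medians, with IDH3A at 0.47 and IDH3G at -0.46. The part of X linkage in the difference was not tested. Leaving out male replicate 5 gave 0.98 and leaving out male replicate 3 (the library with the lowest IDH3G) gave 0.66, each with an adjusted p of 0.0333 in the exact permutation test. Within library numbers the difference was 0.93. The exact permutation test, which then has only 108 arrangements, gave an adjusted p of 0.0648. That is the smallest it can give unless other ratios also have small p-values.

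None of the other 6 ratios passed, with adjusted p between 0.371 and 0.691 in the exact permutation test. These paired the cytosolic with the mitochondrial form of malate dehydrogenase (MDH1/MDH2), of NADP isocitrate dehydrogenase (IDH1/IDH2), of aspartate aminotransferase (GOT1/GOT2) and of malic enzyme (ME1/ME2), the ATP-forming with the GTP-forming subunit of succinyl-CoA ligase (SUCLA2/SUCLG2), and the enzyme that releases ammonia from glutamate with the one that fixes it (GLUD1/GLUL). The MDH1/MDH2 log2 ratio averaged 1.04 ± 0.31 in females (SD, n = 6) against 0.57 ± 0.61 in males (SD, n = 5), and male replicate 5 was the only library where MDH2 had more counts than MDH1, at -0.37. The ME1/ME2 ratio was lower in males by 1.01 on average, with ranges of -4.08 to -0.27 in females and -4.72 to -1.92 in males. ME1 had only 6 to 156 counts per library, which limits this ratio.

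**Figure D3:**
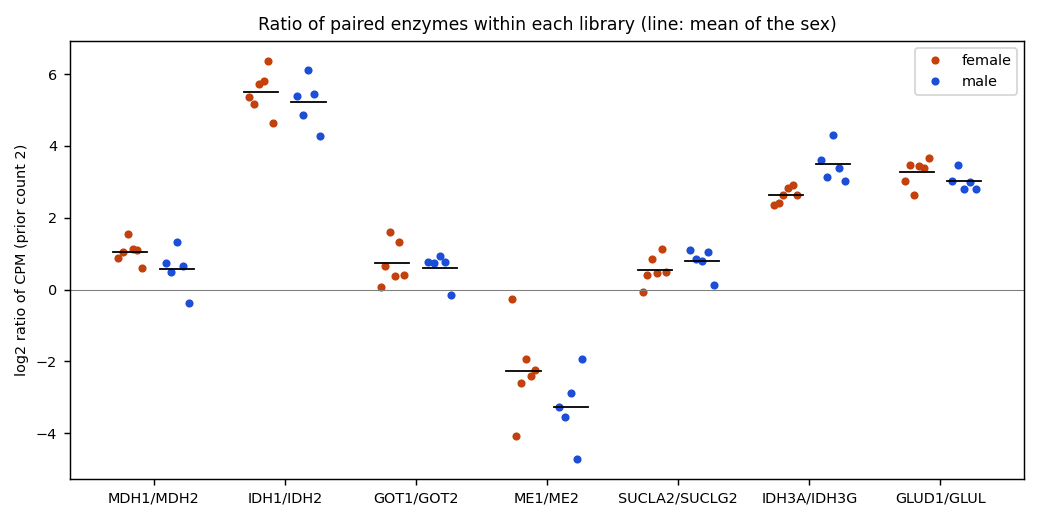
Log2 ratio of CPM between paired enzymes in each library (prior count 2), females in orange and males in blue, with a line at the mean of each sex. Only for IDH3A/IDH3G do the male points, from 3.03 to 4.32, all lie above the female points, from 2.37 to 2.91.

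MDH2, the mitochondrial malate dehydrogenase that closes the cycle by making oxaloacetate, lies on chromosome 25 from 34254272 to 34267804. Female libraries ran from 498 CPM through a median of 579 CPM to 719 CPM. Male libraries were at 781, 1124, 655, 944 and 1429 CPM. The groups overlapped only through male replicate 3, and male replicate 5 was the highest. The log2 fold change was 0.65 ± 0.18 (SE; fold 1.57), with an edgeR FDR of 0.122 after Benjamini-Hochberg adjustment, so MDH2 passed the fold change but not the FDR. It was 0.51 without male replicate 5. DESeq2 called MDH2 male-biased with a log2 fold change of 0.65 and an FDR of 0.0247. The span of MDH2 overlaps that of STYXL1.

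The other enzymes of the cycle showed no difference that passed either test in the fit of all libraries. Citrate synthase (CS), which admits acetyl-CoA, was at 414 ± 41.8 CPM in females (SD, n = 6) against 486 ± 225 CPM in males (SD, n = 5). Male replicate 3 was at 860 CPM and the other males at 298 to 477 CPM. The log2 fold change of CS was 0.22 ± 0.22 (SE), and -0.0914 without male replicate 3. IDH2, the mitochondrial NADP-dependent form, was at 20.2 ± 7.72 CPM in females (SD, n = 6) and 25.7 ± 8.95 CPM in males (SD, n = 5), with a log2 fold change of 0.25 that was 0.10 without male replicate 5. OGDH and DLST, the first components of the alpha-ketoglutarate dehydrogenase complex, had few counts, with 28 to 118 per library for OGDH and 8 to 84 for DLST. Their log2 fold changes were -0.01 ± 0.31 (SE) and -0.30 ± 0.53 (SE), and they were -0.18 and -0.94 without male replicate 5. For DLST that library held 4.07 CPM where the other males held 0.636 to 1.41 CPM.

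Succinyl-CoA ligase, which yields ATP or GTP, is made of SUCLG1 with either SUCLA2 or SUCLG2. SUCLA2 was at 270 ± 61.7 CPM in females (SD, n = 6) against 368 ± 86.2 CPM in males (SD, n = 5), with a log2 fold change of 0.44 ± 0.20 (SE). Male replicate 5 was the lowest male, at 245 CPM. Without it the log2 fold change was 0.60, with an edgeR FDR of 0.0994 after Benjamini-Hochberg adjustment, so SUCLA2 became the only enzyme called male-biased in that fit, where 0.71% of all tested genes were called male-biased and 2.10% female-biased. SUCLG2, on chromosome 22 from 33859720 to 34134867, had the smallest coefficient of variation of the tested members, 14.3% over 11 libraries. Its lowest, median and highest levels in females were 146, 179 and 243 CPM, and males were at 210.0, 191, 200.1, 218 and 224 CPM. The whole male range lay within the female range. SUCLG1 was at 228 ± 38.3 CPM in females (SD, n = 6) against 283 ± 64.4 CPM in males (SD, n = 5), with a log2 fold change of 0.26, or 0.16 without male replicate 5. Fumarase (FH), which hydrates fumarate to malate, was at 343 ± 45.7 CPM (SD, n = 6) and 373 ± 90.6 CPM (SD, n = 5), with a log2 fold change of 0.11 ± 0.16 (SE), or 0.21 without that library.

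The malate-aspartate shuttle carries reducing equivalents of cytosolic NADH into the matrix. Its 4 members here all had estimates above 0, with a median log2 fold change of 0.37, or 0.29 without male replicate 5. The aspartate-glutamate carriers of the shuttle were not among the members but were tested in the same fit. Their log2 fold changes were -0.72 ± 0.46 (SE) for SLC25A12 and 0.10 ± 0.21 (SE) for SLC25A13. MDH1, the cytosolic malate dehydrogenase, was at 1220 ± 166 CPM in females (SD, n = 6) against 1424 ± 219 CPM in males (SD, n = 5). GOT1, the cytosolic aspartate aminotransferase, was at 153 ± 32.0 CPM in females (SD, n = 6), from 118 to 194 CPM, and at 197 ± 13.6 CPM in males (SD, n = 5), from 179 to 212 CPM. Its log2 fold change of 0.34 ± 0.14 (SE) was 0.41 without male replicate 5. For GOT2, the mitochondrial partner, and SLC25A11, the carrier that exchanges malate for alpha-ketoglutarate, the highest value belonged to male replicate 5, at 210.0 and 144 CPM. Their log2 fold changes were 0.41 and 0.53 with that library and 0.25 and 0.28 without it.

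The malic enzymes turn malate into pyruvate, while pyruvate carboxylase (PC) refills oxaloacetate and PCK2 makes phosphoenolpyruvate from it in the mitochondrion. Estimates were above 0 for PCK2 and ME2 and below 0 for ME1 and PC. PCK2 had the largest fold change of the 30, at 2.41 (log2 1.27 ± 0.44 SE), with an edgeR FDR of 0.236 after Benjamini-Hochberg adjustment. Females ran from 3.16 CPM through a median of 5.25 CPM to 19.6 CPM. Males were at 17.8, 11.7, 16.7, 13.1 and 28.1 CPM. Female replicate 3, at 19.6 CPM, lay above 4 of the 5 males, and without it PCK2 was called male-biased (0.413% of all genes tested in that fit). ME2, the mitochondrial NAD-dependent malic enzyme, was at 13.0 ± 6.60 CPM in females (SD, n = 6) against 20.2 ± 8.94 CPM in males (SD, n = 5), and its log2 fold change of 0.59 was 0.38 without male replicate 5. PC was at 23.8 ± 5.5 CPM (SD, n = 6) and 24.1 ± 14.0 CPM (SD, n = 5), and the log2 fold change of -0.16 became -0.50 without male replicate 5.

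ME1, the cytosolic NADPH-forming malic enzyme on chromosome 9 from 23131887 to 23352386, had the largest coefficient of variation, 86.9% over 11 libraries. In females its lowest, median and highest levels were 0.801, 2.32 and 6.55 CPM. In males it was at 1.24, 2.43, 1.42, 0.477 and 7.56 CPM. Both sexes spanned nearly the same range only with male replicate 5, which was the highest library of all. The other males lay between 0.477 and 2.43 CPM. The log2 fold change was -0.30 ± 0.80 (SE) with that library and -1.32 ± 0.65 (SE) without it, where the edgeR FDR was 0.345. ME3, the other mitochondrial malic enzyme, had at most 1 count in any library and was not tested. Amplified reads without molecular tags do not count molecules.

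**Figure D4:**
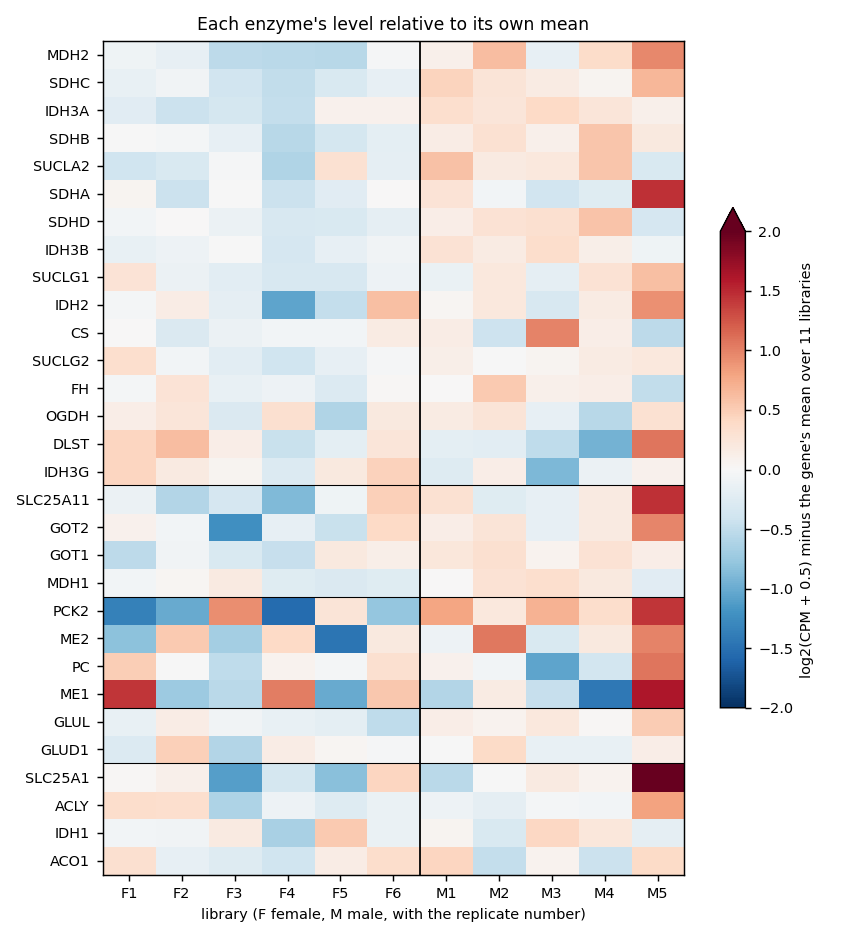
Level of each of the 30 tested enzymes in each library as log2(CPM + 0.5) minus its own mean over the 11 libraries, with rows grouped by role and the black vertical line between females (F1 to F6) and males (M1 to M5). Male replicate 5 (M5) holds the darkest red cells, among them SLC25A1, ME1, SDHA and SLC25A11, and blue cells for CS, SUCLA2, FH and SDHD.

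Glutamate enters the cycle through GLUD1, which converts it to alpha-ketoglutarate, and is turned into glutamine by GLUL. GLUD1 was at 504 ± 124 CPM in females (SD, n = 6) against 523 ± 85.4 CPM in males (SD, n = 5), and its log2 fold change was 0.02 with a 95% interval of -0.37 to 0.41. The data thus leave room for a difference of that size in either direction. GLUL was at 51.0 ± 7.49 CPM in females (SD, n = 6) against 64.6 ± 9.11 CPM in males (SD, n = 5), with a log2 fold change of 0.35 ± 0.17 (SE) that was 0.24 without male replicate 5.

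Citrate leaves the mitochondrion through the carrier SLC25A1 and is split by ACLY into acetyl-CoA and oxaloacetate, or converted through ACO1 and IDH1 to alpha-ketoglutarate with the formation of NADPH. None of these 4 passed the test. IDH1 was at 902 ± 236 CPM in females (SD, n = 6) against 938 ± 188 CPM in males (SD, n = 5), and ACO1, which also serves as an iron-regulatory protein, at 16.0 ± 3.53 CPM (SD, n = 6) and 16.2 ± 4.83 CPM (SD, n = 5). Their log2 fold changes were 0.06 (95% interval -0.37 to 0.50) and -0.00215 (95% interval -0.54 to 0.53). SLC25A1 and ACLY were each highest in male replicate 5. That library held 192 CPM of SLC25A1 where the other males held 32.0 to 53.2 CPM, and 583 CPM of ACLY where the others held 296 to 326 CPM. The log2 fold changes of 0.65 for SLC25A1 and 0.13 for ACLY were 0.17 and -0.07 without it.

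The departures of male replicate 5 ran in both directions. Its level was over the mean of the other 4 males by 5.43-fold for ME1, 4.25-fold for SLC25A1, 3.66-fold for DLST, 2.92-fold for SDHA, 2.69-fold for SLC25A11 and 2.60-fold for PC, and it was 0.559 of that mean for CS, 0.615 for SUCLA2, 0.618 for FH and 0.628 for SDHD. The high summed trophectoderm marker level, to which KRT8 gave the largest part, the depth and the low number of detected genes of this library move with these values. Their part in them was not tested. The summed inner cell mass markers, without TDGF1, lay between 560 and 980 CPM in females and between 792 and 1076 CPM in males, and their part in the male estimates of the enzymes was not tested either.

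A further 34 genes of the same pathways, among them assembly factors of succinate dehydrogenase, glutaminases, transaminases, acetyl-CoA synthetases and mitochondrial carriers, were looked up in the same fit. Of these 33 were in the table and 27 were tested, and 0 were called in either direction (0.414% and 1.5% of all tested genes). Estimates were above 0 for 18 of the 27, with a median log2 fold change of 0.16, and for 16 of them without male replicate 5, with a median of 0.0952. At an unadjusted p under 0.05 by edgeR, 2 were higher in males, SDHAF2 among them, and 0 were higher in females, where 6.26% and 6.95% of all tested genes were. SDHAF2, which attaches the flavin to SDHA, lay between 159 and 196 CPM in females and between 203 and 252 CPM in males, without overlap, with a log2 fold change of 0.30 ± 0.12 (SE). ACSS1, the mitochondrial acetyl-CoA synthetase, was at 51.5 ± 14.4 CPM in females (SD, n = 6) against 92.4 ± 56.2 CPM in males (SD, n = 5), with male replicate 5 at 186 CPM and the mean of the other males at 69.1 CPM.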

How the data were processed

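RNA-seq counts of 6 female and 5 male libraries were used, and a 4-cell Iso-seq sample was not. The deposited counts per gene are featureCounts output without normalization, made by the authors from reads trimmed by fastp 0.20.0 and mapped to ARS-UCD 2.0 by STAR 2.7.10b. Reads shared by copies or by overlapping genes can be lost or misassigned in such counts, and the annotated spans of 11 of the 31 members overlap another gene. Coordinates came from RefSeq (30271 symbols matched).

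Counts were filtered with filterByExpr, scaled by TMM and tested with edgeR 4.0.16 in R 4.3.3, with the library number as a block in place of the collection week, which the labels do not give. DESeq2 1.42.0 was an alternative. The other alternatives were no block, RLE factors, autosomal TMM factors, looser and stricter count filters, an FDR of 0.05, glmTreat, other prior counts and leaving out each library. Log2 ratios (prior count 2) were compared by exact permutation. The methods were tested on simulated counts.

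Values in every library are given for called members, for the 5 with the smallest p, for the X-linked member and for the largest and smallest coefficient of variation. PCK2, and members described for a single outlying library, were picked with their values in view. Values of 1 of the other pathway genes are not reported here. The members, lists and ratios were chosen with earlier results of these data known. No 2 libraries of a sex were copies (correlation 0.861 to 0.963 over 25 pairs, across genes). Nothing says that pools of one sex are independent matings, so p-values measure the spread between pools.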

Additional observations from a re-analysis of the deposited data

Results flagged for a closer look

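In 9 of the 74 groups of libraries examined, the highest or lowest library lay farther from the others than Dixon's 95% critical value allows, and chance flags about 1 group in 20. Male replicate 5 was that library in 8 of the 9. It was the highest male for SDHA, at 414.2 CPM where the other males held 114.4 to 182.0 CPM, for ACLY, at 583.1 CPM against 295.9 to 326.0 CPM, and for SLC25A1, at 192.4 CPM against 32.02 to 53.23 CPM. It was also the highest male for SLC25A11, at 143.6 CPM against 43.85 to 64.37 CPM, and for GOT2, at 210.0 CPM against 94.43 to 127.3 CPM. The low-count genes DLST and ME1 followed, at 4.07 CPM against 0.6356 to 1.407 CPM and at 7.559 CPM against 0.4767 to 2.431 CPM. The log2 ratio of GOT1 to GOT2 in this library was the lowest among males, at -0.1655 against 0.7346 to 0.9216. The remaining group was SUCLG1 in females, where female replicate 1 held 300.7 CPM and the others 197.2 to 229.4 CPM.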

How the results depend on the processing

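Of the 30 tested enzymes, 22 kept the direction of their estimate under all alternatives run, up to 19 each, and no enzyme was called female-biased under any of them. The number called male-biased rose from 0 (0.414% of all genes tested) to 2 without the replicate block (SDHC and MDH2, 0.75%). It also rose to 2 with DESeq2 (MDH2 and PCK2, 1.34%) and to 2 with every gene of at least 1 count kept (MDH2 and PCK2, 0.876%). The number ranged from 0 to 1 when libraries were left out. PCK2 was called without female replicate 3 (0.413% of all genes tested in that fit), SDHC without male replicate 4 (0.393%) and SUCLA2 without male replicate 5 (0.71%). Genes called in either direction over all those tested numbered 95 to 364 in these fits. With every gene of at least 1 count kept, 3 of the 32 other pathway genes tested were called male-biased, ACSS1 and ACSS2 among them. In that fit 0.876% of all genes tested were called male-biased. Deviations from the mean of the sex were also compared between female and male libraries of the same number, over 12802 genes. Their correlation was 0.0124, 0.369 and 0.197 for numbers 1, 2 and 3. These values do not settle whether the numbers pair the samples.

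The following values belong to the 8 enzymes that changed direction. Without the block, the log2 fold change was 0.0144 for ACO1, 0.000345 for OGDH and 0.0206 for PC. It was -0.00813 for GLUD1 with autosomal TMM factors and 0.00227 for ACO1 with every gene of at least 1 count. When libraries were left out, it ranged from -0.0718 to 0.25 for ACLY, from -0.14 to 0.12 for ACO1, from -0.0914 to 0.37 for CS, from -0.0812 to 0.13 for GLUD1, from -0.12 to 0.20 for IDH1, from -1.32 to 0.38 for ME1, from -0.18 to 0.10 for OGDH and from -0.50 to 0.0673 for PC. The CS estimate was -0.0914 without male replicate 3 and that of ME1 was 0.38 without female replicate 1. The GOT1/GOT2 difference ranged from -0.27 to 0.0594.

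The IDH3A/IDH3G difference ranged from 0.66 to 0.98 when libraries were left out. Without any 1 female library the adjusted p of the exact permutation test was 0.0556. That is the lowest that 5 against 5 libraries allow over 7 ratios unless other ratios also have small p-values. With the replicate block the difference was 0.93 (adjusted p = 0.0648, exact permutation). Except as stated, the cause of a change was not tested. Counts were fewest for ME3, DLST and ME1, and DLST and ME1 gave no value under the stricter filter.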
